A study of Equus caballus with 21 samples.

Results

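Stroma and luminal epithelium of the same endometrial biopsies were compared in 8 of the 21 libraries of a horse data set. The rule took each biopsy that gave a stromal library and set that library against the luminal library of the same biopsy. It found 4 such biopsies from 3 mares, with mare B sampled in the estrous cycle, mare U in pregnancy and mare M in both states. The 4 glandular libraries of these biopsies served as a further compartment beside the comparison.

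The study took uterine biopsies from healthy warmblood mares on day 12 of pregnancy or on day 12 of the estrous cycle and asked which endometrial compartment responds to the conceptus. Mares of both states received human choriogonadotropin (hCG) to bring on ovulation, and those assigned to pregnancy were inseminated. Luminal epithelium, glandular epithelium and stromal areas were cut by laser from stained frozen sections, so the areas were chosen by their look and not by a marker. Each library was made from a minute amount of RNA with a kit built for single cells, and an unstated number of libraries was amplified once more. A stromal area holds whatever lies between the epithelia, which includes vessels, immune cells and nerves beside fibroblasts.

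The luminal epithelium is a sheet of polarised cells, bound by tight junctions, that faces the uterine cavity and the conceptus. It secretes into the lumen, moves ions and water, and carries some ciliated cells. The stroma is the connective tissue underneath, in which fibroblasts lay down collagens, proteoglycans and glycoproteins and release proteins that bind growth factors. Signals pass between both layers, since many uterine ligands are made in one of them and received in the other.

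Total counts ranged from 136259 to 402524 in the luminal and from 138441 to 1175127 in the stromal libraries, and 4072 to 9038 genes had a count. RN18S, which encodes 18S ribosomal RNA, made up 21% to 23.5% of the counts in 3 luminal libraries and 0.452% in the pregnant luminal library of mare M. In stroma it took 30.8% in cyclic B, 7.29% in cyclic M, 66.2% in pregnant M and 0.819% in pregnant U. Levels below are in CPM, relative to a library size scaled by the trimmed mean of M values (TMM), and do not compare between genes, because long genes collect more reads. Means are given with the SD over the 3 mares, after summing the libraries of a mare, and fold changes are log2 values of stroma minus luminal epithelium. Their SE was derived from the test's F value and rests on a spread shared by all genes, so it does not measure the spread over mares.

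The markers of both compartments were checked first, as summed levels of fixed gene lists in CPM without ribosomal RNA genes. The 44 structural proteins of the extracellular matrix with an ID summed to 21141 to 34244 CPM in the stromal and 3337 to 7512 CPM in the luminal libraries. The 19 genes of epithelial identity summed to 2356 to 3969 CPM in the luminal and 493 to 1188 CPM in the stromal libraries. Both lists thus separated the compartments without overlap. The 16 genes of stromal fibroblast identity summed to 7345 to 15344 CPM in stroma and to 1346 to 1792 CPM in 3 luminal libraries, but to 7911 CPM in the pregnant luminal library of mare M. There COL1A1, a chain of type I collagen, stood at 2756 CPM against 216 to 221 CPM in the other luminal libraries. The library also lacked or nearly lacked several transcripts that were high in the others, so values without it are given beside the results that it changed most. The authors' deposited signal of 19 libraries leaves it out, together with the cyclic glandular library of mare M.

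**Figure D1:**
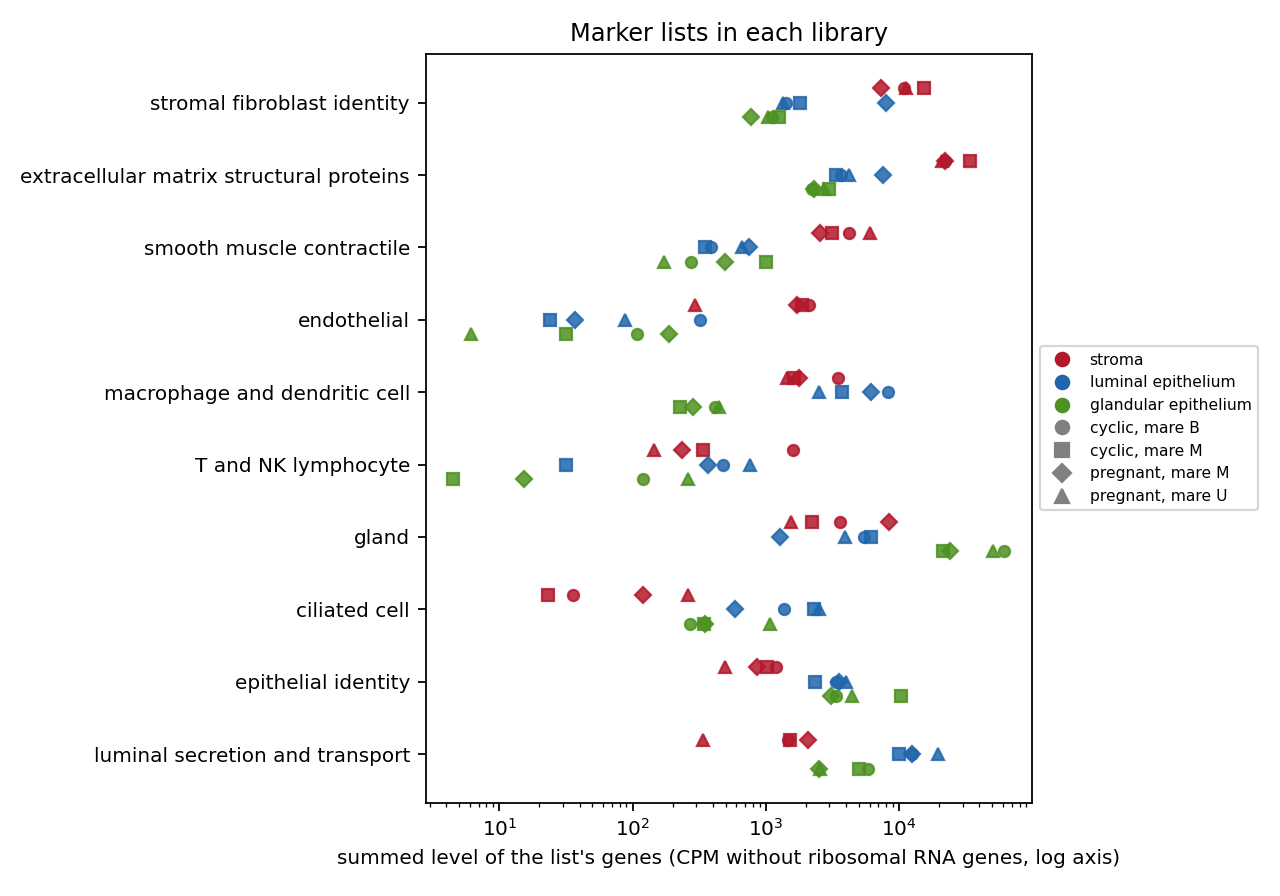
Summed level of each marker list (CPM without ribosomal RNA genes, log axis) in the 4 stromal, 4 luminal and 4 glandular libraries, with 1 point per library and a symbol per biopsy. Matrix genes lay at 21141 to 34244 CPM in stroma and at most at 7512 CPM in luminal epithelium, and the pregnant luminal library of mare M lay at 7911 CPM for fibroblast genes, within the stromal range. The luminal level of the macrophage and dendritic cell list came mostly from CD74.

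Of the single markers, VIM, the intermediate filament of mesenchymal cells, stood at 1427, 688, 726 and 2691 CPM in stroma and at 316, 393, 598 and 387 CPM in luminal epithelium (cyclic B, cyclic M, pregnant M and pregnant U, the order used throughout). Its groups did not overlap, but its fold change of 1.70 ± 0.94 did not pass (adjusted p = 0.703). EPCAM, an epithelial adhesion molecule, stood at 587, 57.4, 1582 and 265 CPM in luminal epithelium and at 288, 67.4, 206 and 93.8 CPM in stroma, where the groups overlapped (-1.61 ± 1.17, adjusted p = 0.825). CDH1, the adhesion protein of epithelial junctions, had 242 counts in luminal and 10 in stromal libraries (-4.70 ± 2.49, adjusted p = 0.68). KRT18, a keratin, had a fold change of -0.82 ± 2.78 (adjusted p = 0.99) and turned positive without mare M (1.27). The type I collagen chains COL1A1 (1.83 ± 0.94) and COL1A2 (2.90 ± 0.94) were not called either (adjusted p = 0.674 and 0.151). LUM, a proteoglycan, had 2.48 ± 2.40 (adjusted p = 0.908). KRT8, KRT19 and COL3A1 were not analysed here.

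The comparison asked which genes separate the connective tissue from the surface epithelium on day 12. Stroma held far more mRNA of COL14A1, a collagen that sits on fibrils, of IGFBP5, a binder of insulin-like growth factors, and of ABCA8, a membrane transporter. Luminal epithelium held far more of VNN2, a membrane enzyme of the vanin family, of GM2A, a lysosomal protein that helps to break down gangliosides, and of TRPV6, an epithelial calcium channel. In all, 46 of 5551 genes passed the threshold of 0.05 (0.829%) in edgeR's quasi-likelihood test after Benjamini-Hochberg adjustment, on counts summed per mare with the mare as a block. Of these, 16 were higher in stroma (0.288%) and 30 in luminal epithelium (0.54%). Their fold changes measured 3.72 to 8.50 in size, while the median over all genes was -0.74. In a bulk library fewer cells of a type and less RNA per cell cannot be told apart.

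Of the 46 genes, 40 differed in the same direction in all 4 biopsies, 15 higher in stroma and 25 in luminal epithelium. Among all genes tested, 5.39% were higher in stroma and 8.56% in luminal epithelium in each biopsy. Over the 5551 genes the differences of the biopsies agreed weakly in pairs. Their correlation ran from 0.0652 (cyclic M with pregnant M) to 0.222 (cyclic B with pregnant U). The groups did not overlap for 38 of the 46, 15 higher in stroma and 23 in luminal epithelium, against 2.4% and 4.47% of all genes. The plain library size as scale gave 23 calls, 3 higher in stroma and 20 in luminal epithelium, so the split of the calls depended on the scale. A fit with no replicate block for the mare gave 88 calls, 40 in stroma and 48 in luminal epithelium. Without the pregnant luminal library of mare M there were 50 calls, 20 higher in stroma and 30 in luminal epithelium. Without the pregnant stromal library of mare M, which held the most counts, there were 45, with 15 and 30. DESeq2 called 537 genes on the same sums and limma none on the deposited signals.

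Many calls ended when a mare was left out, and some when a single library was. Without the pregnant luminal library of mare M the calls of GCNT3, LOC100068406, PATJ and PRXL2A ended (adjusted p = 0.517, 0.106, 0.072 and 0.0549). Without its pregnant stromal library the calls of FBLN1, CREB5, TFPI2, PLXDC2, LOC100058767, DNAH9, FOXJ1, IER3 and DTHD1 ended (adjusted p = 0.0558 to 0.554). In the fit of the 8 libraries with the biopsy as a block, the calls of DCN, CREB5, JAM2, TFPI2, PLXDC2 and LOC100058767 in stroma ended (adjusted p = 0.0807 to 0.59). In luminal epithelium that fit ended the calls of WLS, SAT1, SH3RF2, CLDN8, PATJ, EPAS1, ITPR1, SLC5A3, RIMKLB, IER3, DNAH9, FOXJ1 and DTHD1 (adjusted p = 0.0678 to 0.697). Without mare B 18 of the 46 genes remained called, without mare M 18 and without mare U 28. The genes that remained in all 3 of these fits were 8: COL14A1, IGFBP5, ABCA8, VNN2, GM2A, TRPV6, LOC100066131 and the ID 102149844, which had no symbol. They also kept their calls in each of the 20 alternatives run on counts. LOC100066131 had the smallest p of all genes (-7.14 ± 1.20, adjusted p = 1.55e-05). LOC100066131, 102149844 and the calls named below outside the first 12 of a direction were chosen after their values were seen.

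**Figure D2:**
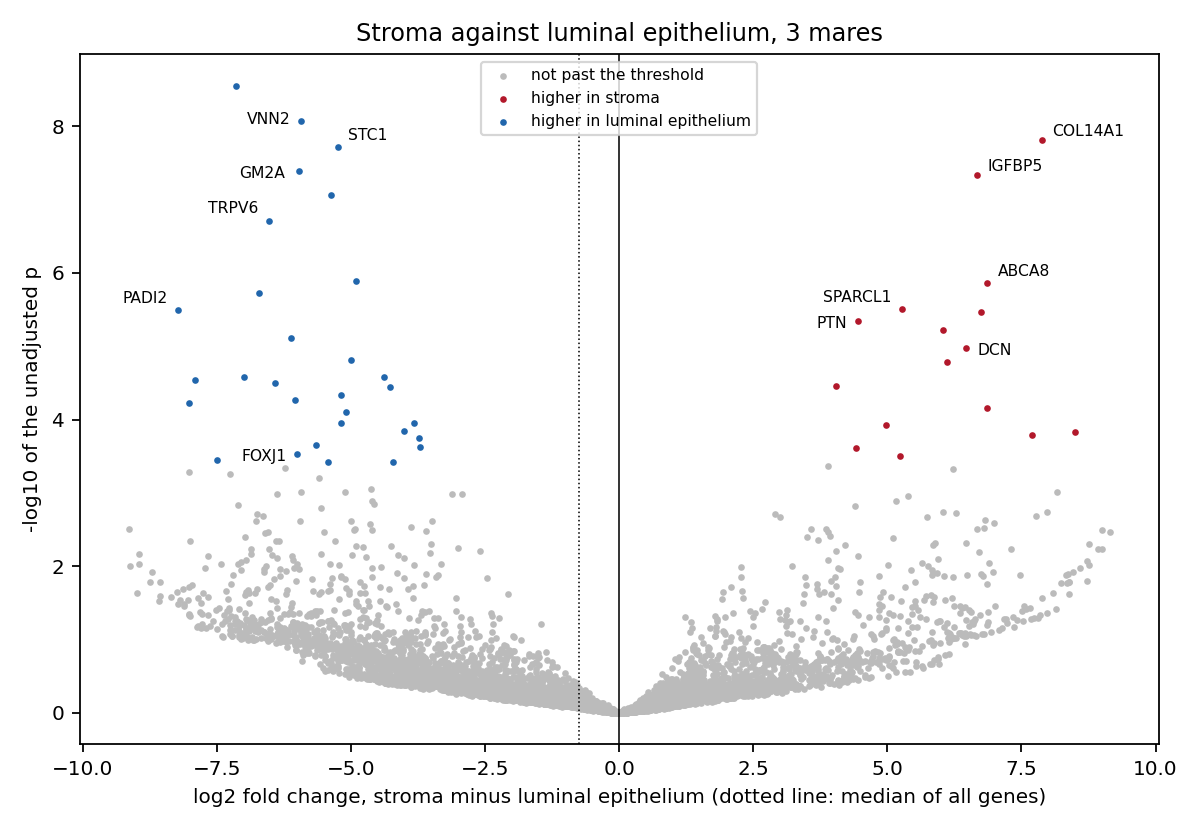
Log2 fold change (stroma minus luminal epithelium) against -log10 of the unadjusted p for the 5551 genes tested, with the 16 genes called higher in stroma in red and the 30 called higher in luminal epithelium in blue. The dotted line marks the median of all genes at -0.74.

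Among matrix proteins, COL14A1 stood at 1484, 169, 532 and 1552 CPM in stroma and at 7.95, 0, 5.29 and 2.48 CPM in luminal epithelium. Every stromal library lay above every luminal one, and the mares averaged 1124 ± 577 against 4.59 ± 3.83 CPM (n = 3; 7.87 ± 1.39, adjusted p = 2.68e-05). DCN, a proteoglycan that coats collagen fibrils, stood at 1261, 614, 736 and 1181 CPM in stroma and at 1.99, 94.7, 68.8 and 4.96 CPM in luminal epithelium. Its levels in luminal epithelium were highest in both libraries of mare M, and its fold change was 6.47 ± 1.47 (adjusted p = 0.00327, but 0.114 with the biopsy as a block). SPARCL1, a matricellular glycoprotein, averaged 2114 ± 880 against 80.2 ± 86.9 CPM (5.27 ± 1.13, adjusted p = 0.00137). The glycoprotein FBLN1 stood at 292, 735, 604 and 584 CPM in stroma and at most at 10.6 CPM in luminal epithelium (6.85 ± 1.72, adjusted p = 0.0127). TIMP2, an inhibitor of metalloproteinases, averaged 825 ± 201 against 11.7 ± 13.8 CPM (6.75 ± 1.45, adjusted p = 0.00137). These genes form part of the matrix that fibroblasts secrete or of its control.

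Among proteins that bind or act as growth factors, IGFBP5 stood at 991, 1247, 1744 and 1667 CPM in stroma and at 11.9, 8.61, 15.9 and 12.4 CPM in luminal epithelium. Both groups were tight and far apart, and the mares averaged 1409 ± 398 against 13.1 ± 0.78 CPM (6.67 ± 1.22, adjusted p = 4.22e-05). FST, follistatin, which binds activins, stood at 1449, 1531, 433 and 725 CPM in stroma and at 33.8, 2.87, 31.7 and 2.48 CPM in luminal epithelium. Its stromal level was higher in both cyclic than in both pregnant biopsies, and its fold change was 6.03 ± 1.33 (adjusted p = 0.00211). PTN, pleiotrophin, a heparin-binding growth factor, stood at 2008, 2218, 1925 and 3531 CPM in stroma and at 95.5, 121, 10.6 and 119 CPM in luminal epithelium (4.45 ± 0.97, adjusted p = 0.00167). Its luminal level was lowest in the pregnant library of mare M.

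The other genes higher in stroma had various roles. ABCA8 averaged 925 ± 355 against 15.1 ± 22 CPM (6.86 ± 1.42, adjusted p = 0.000768). APOD, a lipocalin that carries lipids, averaged 2793 ± 925 against 210 ± 147 CPM (4.04 ± 0.98, adjusted p = 0.00775), with its highest stromal level, 6844 CPM, in cyclic M. GSN, which severs actin filaments, averaged 876 ± 464 against 24.9 ± 32.1 CPM (6.10 ± 1.42, adjusted p = 0.00452). CREB5, a transcription factor, had 302 counts in stroma and 1 in luminal epithelium, a ratio of 401 with a 95% counting interval of 71.4 to 15889 (adjusted p = 0.0227). Its stromal level ran from 6.74 CPM in cyclic M to 799 CPM in cyclic B. The junction protein JAM2 had 378 counts against 2, a ratio of 251 (95% counting interval 69 to 2080, adjusted p = 0.024). TFPI2, an inhibitor of serine proteases (4.41 ± 1.20, adjusted p = 0.0334), PLXDC2, a membrane protein (5.24 ± 1.45, adjusted p = 0.0405), and LOC100058767 (4.97 ± 1.29, adjusted p = 0.0196) completed the 16. PLXDC2 was not uniform, with 13.5 CPM in the stroma of cyclic M against 694 to 789 CPM in the other 3 stromal libraries.

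Of the 12 stromal genes that the naming rule chose, 6 kept their call without mare B, 6 without mare M and 11 without mare U. The call ended without mare B for SPARCL1, PTN, DCN, GSN, APOD and CREB5 (adjusted p = 0.0598 to 0.787). It ended without mare M for TIMP2, PTN, FST, APOD, FBLN1 and CREB5 (adjusted p = 0.0531 to 0.438), and for FBLN1 also without mare U (adjusted p = 0.11). With only the pregnant biopsy of mare M left out, the calls of GSN, FBLN1 and CREB5 ended (adjusted p = 0.0673 to 0.27). GSN nevertheless stayed called without the whole of mare M (adjusted p = 0.031). With only the cyclic biopsy of mare M left out, the calls of FST, APOD, FBLN1 and CREB5 ended (adjusted p = 0.175 to 0.251). Over all 23 alternatives the adjusted p of the 12 ran from 2.53e-10 to 0.787.

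**Figure D3:**
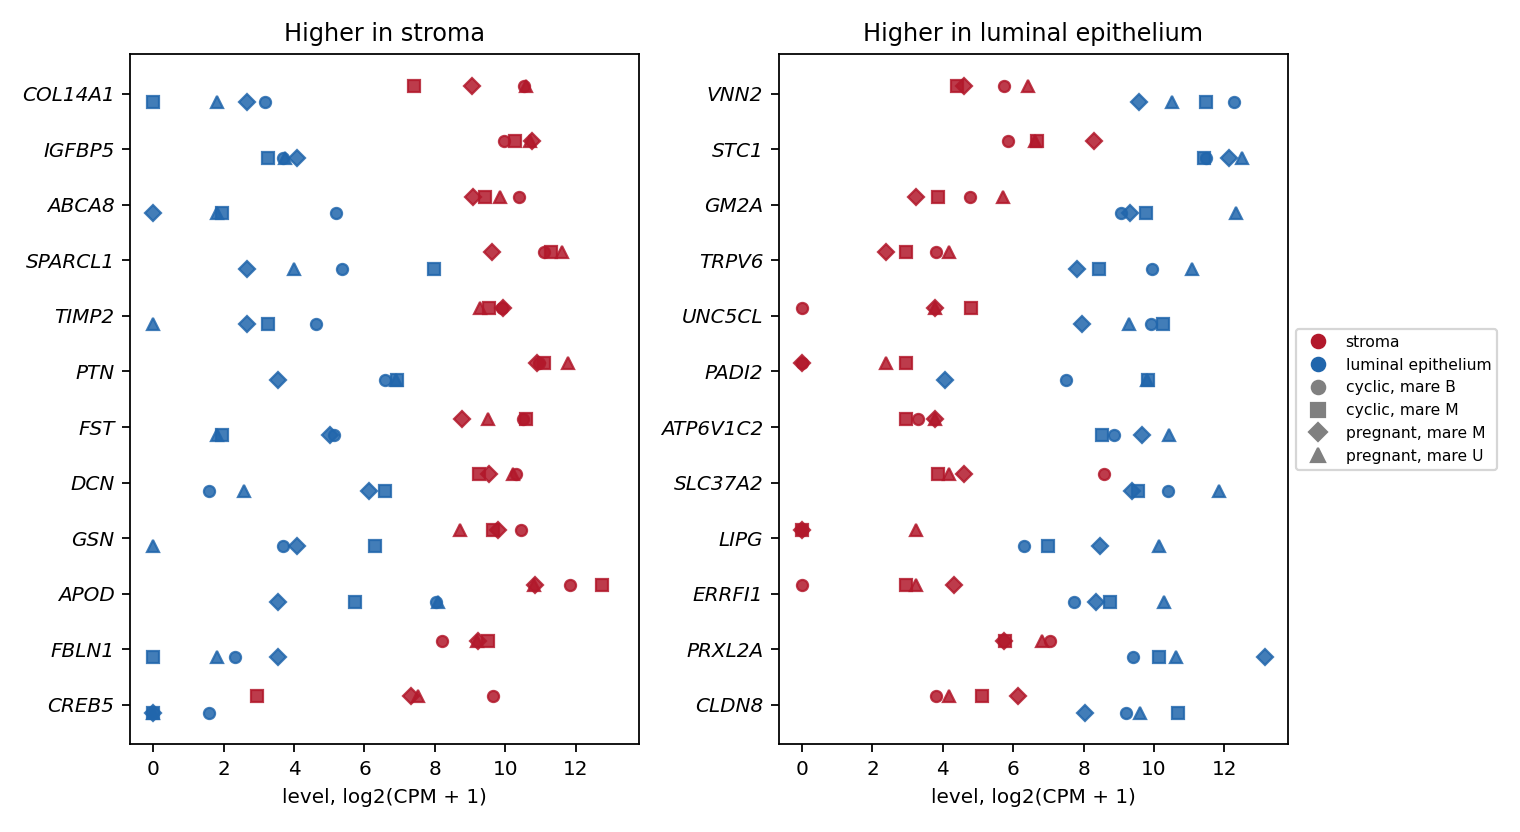
Level of the 12 genes with the smallest p in each direction that differed the same way in all 4 biopsies, as log2(CPM + 1), with 1 point per library (red for stroma, blue for luminal epithelium) and a symbol per biopsy. Points of the compartments do not overlap for any of these genes, and the distance is smallest where 1 library stands apart, such as cyclic B stroma for SLC37A2 at 384 CPM.

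Among luminal genes, STC1, the secreted hormone stanniocalcin, stood at 2832, 2770, 4470 and 5825 CPM in luminal epithelium and at 56.7, 101, 316 and 98.1 CPM in stroma. The groups did not overlap, the highest stromal library was pregnant M, and the fold change was -5.25 ± 0.93 (adjusted p = 2.68e-05). TRPV6 stood at 984, 344, 222 and 2165 CPM in luminal epithelium and at 13.1, 6.74, 4.21 and 17.1 CPM in stroma (-6.53 ± 1.25, adjusted p = 0.000134). ITPR1, a channel that releases calcium from internal stores, averaged 1564 ± 1512 against 97.1 ± 95.4 CPM (-4.22 ± 1.19, adjusted p = 0.0463). ATP6V1C2, a subunit of the vacuolar proton pump, averaged 874 ± 564 against 10.7 ± 2.08 CPM (-6.13 ± 1.37, adjusted p = 0.00249). SLC5A3, a carrier of myo-inositol, averaged 2383 ± 889 against 228 ± 190 CPM (-3.72 ± 1.01, adjusted p = 0.0323). SLC37A2, an exchanger of sugar phosphates, stood at 1358, 744, 661 and 3712 CPM in luminal epithelium and at 384, 13.5, 23.1 and 17.1 CPM in stroma (-5.01 ± 1.16, adjusted p = 0.00448).

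Enzymes and lysosomal proteins were a further part of the luminal genes. VNN2 stood at 4962, 2862, 756 and 1473 CPM in luminal epithelium and at 52.4, 20.2, 23.1 and 85.3 CPM in stroma (-5.94 ± 1.03, adjusted p = 2.33e-05). GM2A stood at 537, 870, 635 and 5183 CPM in luminal epithelium and at 26.2, 13.5, 8.42 and 51.2 CPM in stroma (-5.98 ± 1.09, adjusted p = 4.22e-05). Its luminal level in pregnant U exceeded that of the other 3 libraries, which lay close together. PADI2, which converts arginine residues to citrulline, had 769 counts in luminal epithelium and 2 in stroma, a ratio of 290 (95% counting interval 79.9 to 2396, adjusted p = 0.00137). LIPG, a lipase that acts on phospholipids, had 602 counts against 2, a ratio of 227 (95% counting interval 62.5 to 1876, adjusted p = 0.00703). MME, neprilysin, a membrane peptidase used as a stromal marker in human endometrium, stood at 330, 1272, 1428 and 469 CPM in luminal epithelium and at 13.1, 6.74, 61 and 8.53 CPM in stroma. It was thus higher in luminal epithelium in each biopsy (-5.18 ± 1.34, adjusted p = 0.0191). The call of MME ended without mare B and without mare M (adjusted p = 0.0598 and 0.484).

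Proteins of junctions and of signalling were also called. CLDN8, a claudin of tight junctions, averaged 930 ± 316 against 30.6 ± 28 CPM (-5.19 ± 1.27, adjusted p = 0.00941), and PATJ, a scaffold of apical polarity, 580 ± 249 against 13.2 ± 8.58 CPM (-5.44 ± 1.53, adjusted p = 0.0463, but 0.072 without the pregnant luminal library of mare M). ERRFI1, a feedback inhibitor of the epidermal growth factor receptor, averaged 685 ± 615 against 8.24 ± 8.26 CPM (-6.42 ± 1.54, adjusted p = 0.00737). EPAS1, a transcription factor of the hypoxia response, averaged 1585 ± 815 against 154 ± 170 CPM (-4.02 ± 1.06, adjusted p = 0.0227), with overlap between pregnant U stroma (358 CPM) and pregnant M luminal epithelium (317 CPM). UNC5CL (-6.71 ± 1.41, adjusted p = 0.000955) and PRXL2A, a peroxiredoxin-like protein (-4.28 ± 1.04, adjusted p = 0.00776), completed the 12 of the naming rule. PRXL2A reached 9104 CPM in the pregnant luminal library of mare M, and without that library its adjusted p was 0.0549.

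WLS, which carries Wnt ligands to the cell surface, was higher in luminal epithelium in 3 biopsies and lower in the pregnant biopsy of mare M, where it stood at 52.9 CPM in luminal epithelium and 128 CPM in stroma (-4.38 ± 1.04, adjusted p = 0.00663). SAT1, an enzyme of polyamine turnover (-3.83 ± 0.99, adjusted p = 0.0191), and SH3RF2 (-5.10 ± 1.29, adjusted p = 0.014) showed the same exception. Both stood at 913 to 2500 CPM in 3 luminal libraries, and in the pregnant luminal library of mare M SAT1 stood at 31.7 and SH3RF2 at 5.29 CPM. Without that library WLS, SAT1 and SH3RF2 had adjusted p of 0.0016, 0.00339 and 0.00339. Without the cyclic biopsy of mare M, which left pregnant M as the mare's only biopsy, each stood at an adjusted p of 1. With the biopsy as a block WLS, SAT1 and SH3RF2 had adjusted p of 0.303, 0.697 and 0.511.

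The other calls higher in luminal epithelium were GCNT3, an enzyme of mucin-type glycans (ratio of 230, 95% counting interval 63.4 to 1904, adjusted p = 0.0114), DTHD1 (ratio of 120, 40.9 to 585, adjusted p = 0.0455) and LOC100068406 (ratio of 183, 62.3 to 888, adjusted p = 0.00663). RIMKLB (-3.74 ± 1.00, adjusted p = 0.0261) and the ID 100058422 (-4.90 ± 1.01, adjusted p = 0.000768) belonged to them too, as did IER3, DNAH9 and FOXJ1, which are described with their lists. GCNT3 stood at 778, 2.87, 883 and 129 CPM in luminal epithelium, with the highest level in pregnant M. Its adjusted p was 0.517 without that library, 0.703 without mare B and 0.0686 without mare M. LOC100068406 stood at 147, 17.2, 751 and 1255 CPM in luminal epithelium, and its adjusted p was 0.106 without the pregnant luminal library of mare M, 0.072 without mare M and 0.843 without mare U. Just outside the threshold lay ABCA9, a relative of ABCA8 (3.89 ± 1.11, adjusted p = 0.0514), CFAP44, a protein of cilia (-6.24 ± 1.78, adjusted p = 0.0531), and TAGLN, an actin-binding protein of smooth muscle (6.22 ± 1.78, adjusted p = 0.0533).

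Of the 12 luminal genes of the naming rule, 8 kept their call without mare B, 7 without mare M and 7 without mare U. The call ended without mare B for STC1, UNC5CL, ERRFI1 and CLDN8 (adjusted p = 0.0502 to 0.079). Without mare M it ended for PADI2, SLC37A2, LIPG, PRXL2A and CLDN8 (adjusted p = 0.0722 to 0.438), and without mare U for PADI2, ATP6V1C2, SLC37A2, LIPG and ERRFI1 (adjusted p = 0.0516 to 0.862). With only the pregnant biopsy of mare M left out, the calls of LIPG and PRXL2A ended (adjusted p = 0.101 and 0.169). With only its cyclic biopsy left out, those of UNC5CL, PADI2, SLC37A2, ERRFI1, PRXL2A and CLDN8 ended (adjusted p = 0.144 to 0.612). UNC5CL and ERRFI1 nevertheless stayed called without the whole of mare M (adjusted p = 0.0258 and 0.031). Over all 23 alternatives the adjusted p of the 12 ran from 9.1e-11 to 0.862.

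Gene lists were set beside the single genes, with no set test. A member almost absent from a compartment passed the filter only through the other, so its direction was fixed by the filter. Counts of positive or negative members are thus descriptive. Of all genes tested, 0.288% were called higher in stroma and 0.54% in luminal epithelium, and the median fold change of all genes was -0.74. Of the 45 structural proteins of the matrix, 44 had an ID and 35 were tested, of which 4 were called higher in stroma, where 0.288% of all genes tested were, and 0 in luminal epithelium. Their median fold change was 3.01, 30 of the 35 were positive, and 11 did not overlap with stroma higher (2.4% of all genes). Without the pregnant luminal library of mare M the median was 3.22. FBLN2, another fibulin, stood at 214, 728, 128 and 1301 CPM in stroma and at most at 33.8 CPM in luminal epithelium (5.39 ± 1.65, adjusted p = 0.103). The laminin chains LAMB1 (3.92 ± 1.36) and LAMA4 (5.85 ± 2.70) had no overlap either (adjusted p = 0.217 and 0.555). LAMB3, a laminin chain of epithelial basement membranes, went the other way, with 14.9 to 115 CPM in luminal and 0 to 4.26 CPM in stromal libraries (adjusted p = 0.788).

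Of the 13 tested genes of stromal fibroblast identity, 2 were called, DCN and FBLN1, and 13 of 13 were positive with a median of 4.04. Of all genes tested 0.288% were called higher in stroma, and the call of DCN ended with the biopsy as a block. PDGFRB, a receptor for platelet-derived growth factors, stood at 122, 80.9, 282 and 252 CPM in stroma and at 0, 0, 0 and 12.4 CPM in luminal epithelium (6.75 ± 2.71, adjusted p = 0.388). Of 13 tested enzymes and inhibitors of matrix assembly and remodelling, TIMP2 alone was called, and the median was 1.46, which was 0.38 without the pregnant stromal library of mare M and 0.37 without that biopsy. MMP2, a gelatinase, stood at 1301, 40.5, 1151 and 1104 CPM in stroma and at 83.3 to 561 CPM in luminal epithelium, so cyclic M differed in direction from the other biopsies (1.97 ± 1.00, adjusted p = 0.667).

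Genes of smooth muscle and endothelium had mostly positive fold changes, without passing the test. Of 14 genes of the contractile apparatus 10 were tested, all positive, with a median of 5.16 and 0 called. The summed level of the 14 was 2560 to 6063 CPM in stromal and 350 to 752 CPM in luminal libraries. TAGLN stood at 82.9, 40.5, 225 and 1168 CPM in stroma and at 0, 0, 0 and 52.1 CPM in luminal epithelium. MYH11, the smooth muscle myosin, had 314 counts against 2, a ratio of 208 (95% counting interval 57.2 to 1729, adjusted p = 0.194). ACTA2, smooth muscle actin, had 62 counts against 1 (adjusted p = 0.717), and both stromal values above 100 CPM were those of cyclic B (135 CPM) and pregnant U (124 CPM). Of 7 tested endothelial genes, 6 were positive and 0 were called (median 5.18). PECAM1 stood at 82.9, 236, 259 and 93.8 CPM in stroma and at 33.8, 0, 5.29 and 0 CPM in luminal epithelium (5.18 ± 3.23, adjusted p = 0.741). FLT1, a receptor for vascular endothelial growth factor, had 5.65 ± 2.17 (adjusted p = 0.343). The pericyte list, of cells of the vessel wall, did not separate the compartments, with 218 to 393 CPM in stromal and 107 to 597 CPM in luminal libraries. Of its genes 2 were tested and 0 called. The part of vessels and muscle in the stromal levels was not tested.

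On the epithelial side, 12 of 21 genes of epithelial identity were tested, 0 were called and 11 were negative, with a median of -4.12. CLDN4, a claudin, had 353 counts in luminal epithelium and 2 in stroma, a ratio of 133 (95% counting interval 36.5 to 1102, adjusted p = 0.17). SPINT2, an inhibitor of membrane proteases, had -5.00 ± 1.65 (adjusted p = 0.17) and stood at 0 CPM in the pregnant luminal library of mare M. MUC1, a mucin of the apical surface, stood at 109 to 127 CPM in the luminal and 0 to 4.36 CPM in the stromal libraries, without overlap (adjusted p = 0.649). The list of luminal secretion and transport was drawn up with earlier results of these libraries known. Of its 16 tested genes STC1 and TRPV6 were called, 15 were negative and the median was -4.80. Of all genes tested 0.54% were called higher in luminal epithelium, and the median of all genes was -0.74. SERPINA14, the uterine serpin, stood at 15.9, 411, 1312 and 856 CPM in luminal epithelium and at 2.1 to 13.1 CPM in stroma (-5.30 ± 1.87, adjusted p = 0.237). PIGR, which carries immunoglobulins across epithelia, had -5.40 ± 2.27 (adjusted p = 0.431).

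Of 12 genes of ciliated cells 6 were tested, and all 6 were negative, with a median of -5.26. FOXJ1, DNAH5, RSPH1 and TEKT1 had at most 7 stromal counts, so they passed the filter through luminal epithelium. In the list 1 gene was called higher in luminal epithelium, where 0.54% of all genes tested were. FOXJ1, the transcription factor that switches on the building of motile cilia, was called (-6.01 ± 1.66, adjusted p = 0.0385). It stood at 338, 540, 31.7 and 642 CPM in luminal epithelium and at 13.1, 0, 4.21 and 8.53 CPM in stroma. DNAH9, a dynein of motile cilia outside the list, was called too, with a mean of 648 ± 424 against 8.79 ± 4.16 CPM (-6.05, adjusted p = 0.0106). Both were lower in the pregnant luminal library of mare M than in the other luminal libraries, with 31.7 CPM for FOXJ1 and 26.4 CPM for DNAH9. DNAH5, another such dynein, had 397 counts in luminal and 2 in stromal libraries, a ratio of 150 (95% counting interval 41.1 to 1239, adjusted p = 0.151). The call of FOXJ1 ended without mare B, without mare M and without mare U (adjusted p = 0.0805, 0.311 and 0.296, and up to 0.798 without the cyclic biopsy of mare M).

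**Figure D4:**
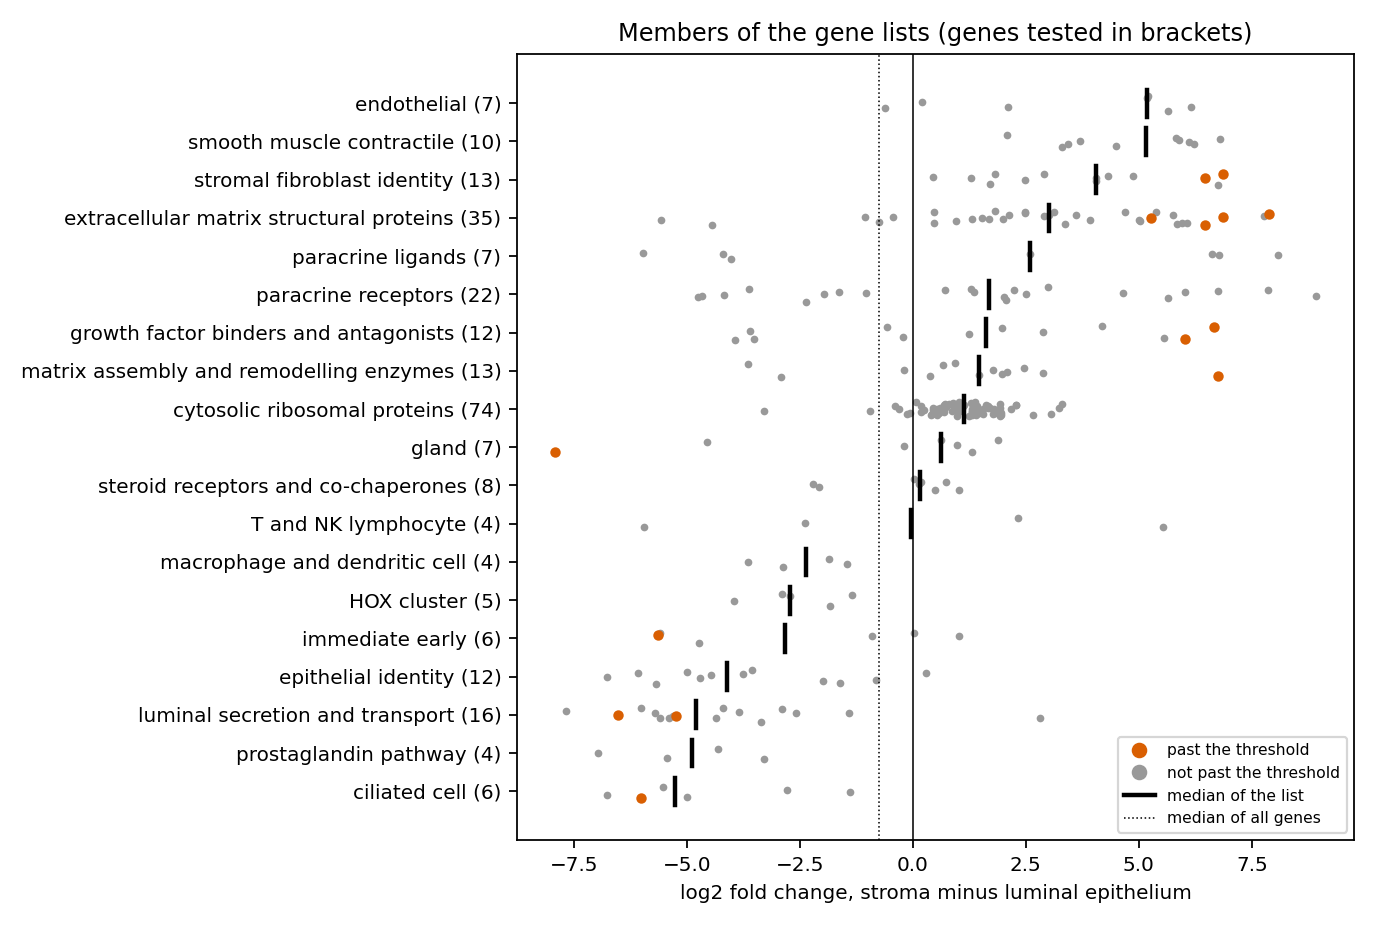
Log2 fold change (stroma minus luminal epithelium) of each tested member of the lists with 4 or more tested genes, with called members in orange, the list's median as a black bar and the median of all genes (-0.74) as a dotted line. Fibroblast, matrix, smooth muscle and endothelial lists have positive medians, and epithelial, luminal and ciliated lists negative ones.

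Immune cell markers showed no common direction. PTPRC, the antigen CD45 of leukocytes, stood at 999, 290, 88.4 and 102 CPM in stroma and at 245, 2.87, 0 and 69.4 CPM in luminal epithelium (2.32 ± 1.53, adjusted p = 0.777). CCL5, CD3D, GZMA and PTPRC were the tested genes of T and NK lymphocytes, with 0 called and 2 of 4 positive. GZMA, a granzyme, had 126 counts in luminal epithelium and 1 in stroma, 260 CPM of it in pregnant U (adjusted p = 0.722). The 4 tested genes of macrophages and dendritic cells were all negative and none was called (median -2.37, or -1.47 without mare M). CD74, the invariant chain of antigen presentation, stood at 4667, 2130, 4369 and 1728 CPM in luminal epithelium and at 1384, 1146, 1317 and 925 CPM in stroma, without overlap (-1.45 ± 0.77, adjusted p = 0.68). In luminal epithelium the summed level of the 13 macrophage and dendritic genes was 2486 to 8319 CPM, against 1439 to 3485 CPM in stroma. CD74 made up most of this sum in every luminal library, so the sum says little about the other members. TPSB2, a tryptase of mast cells, had 122 counts in stroma and 0 in luminal epithelium, at least 54-fold higher against a floor of 3 counts over the luminal libraries (adjusted p = 0.424). JCHAIN, of plasma cells, was found in both compartments, and no count fell on the 3 red blood cell genes with an ID.

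Glandular transcripts were present in both compartments. The gland list summed to 1538 to 8353 CPM in stroma, 1283 to 6103 CPM in luminal epithelium and 21425 to 61669 CPM in the glandular libraries. Stroma was higher in pregnant M (8353 against 1283 CPM) and luminal epithelium in the other 3 biopsies. Of 7 tested genes 4 were positive and LIPG alone was called, with a median of 0.63, which turned to -0.68 without mare M and to -0.19 without its pregnant stromal library. LIPG stood at 77.6, 126, 354 and 1121 CPM in luminal epithelium and at 2.07 to 11 CPM in the glandular libraries, close to its stromal levels. SOX17, a transcription factor of glands, stood at 91.5 to 156 CPM in luminal and at 0 to 29.5 CPM in stromal libraries (-4.55 ± 2.90, adjusted p = 0.755). P19, uterocalin, the main secretory protein of the equine gland, had a fold change of -0.20 ± 0.76 (adjusted p = 0.993). Its part in the levels of either compartment was not tested.

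Signals between the layers were read from a list of ligands and one of receptors. Of 33 ligands 32 had an ID, 23 a count and 7 were tested, with 0 called and a median of 2.58 that was -0.10 without mare B and 1.19 without the pregnant stromal library of mare M. INHBA, the subunit of activin A, stood at 121, 439, 26.4 and 513 CPM in luminal epithelium and at 0, 6.74, 6.31 and 12.8 CPM in stroma, without overlap (-5.96 ± 1.96, adjusted p = 0.17). Its antagonist FST went the other way, as described above. HGF, the ligand of the MET receptor, had 195 counts in stroma, all in cyclic B and pregnant U, and 2 in luminal epithelium (ratio of 129, 95% counting interval 35.4 to 1076, adjusted p = 0.388). RSPO3, which boosts Wnt signals, stood at 148, 243, 0 and 68.2 CPM in stroma and had no count in luminal epithelium (adjusted p = 0.487). CXCL12, a chemokine, stood at 559, 0, 248 and 17.1 CPM in stroma and at 0, 0, 0 and 94.2 CPM in luminal epithelium (adjusted p = 0.678).

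Of 35 receptors 22 were tested and 0 called, 14 positive, with a median of 1.68. The median was 1.05 without the pregnant luminal library of mare M, 1.01 without its pregnant stromal library and 0.73 without both. LIFR, the receptor of leukemia inhibitory factor, stood at 506, 87.7, 274 and 512 CPM in stroma and at 49.7, 0, 5.29 and 0 CPM in luminal epithelium, without overlap (6.03 ± 1.93, adjusted p = 0.147). TGFBR3, a co-receptor of transforming growth factor beta, had 193 counts in stroma and 0 in luminal epithelium, at least 85.4-fold higher (adjusted p = 0.268), but 0 also in the stroma of cyclic M. ERBB3, a receptor of the epidermal growth factor family, stood at 91.5, 646, 5.29 and 427 CPM in luminal epithelium and at 0, 0, 267 and 4.26 CPM in stroma (-4.76 ± 2.02, adjusted p = 0.449). In the pregnant biopsy of mare M its order was reversed.

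Binders and antagonists of growth factors were split. Of 12 tested, IGFBP5 and FST were called higher in stroma, where 0.288% of all genes tested were, 7 were positive and the median was 1.61. The median was 3.10 without the pregnant luminal library of mare M, 2.52 without that biopsy, 3.19 without mare B and 3.33 without mare U. SFRP1, an antagonist of Wnt signals, stood at 279, 573, 61 and 85.3 CPM in stroma and at most at 7.44 CPM in luminal epithelium (5.56 ± 2.70, adjusted p = 0.634). IGFBP7 stood at 284 to 1817 CPM in stroma and 2.87 to 264 CPM in luminal epithelium (1.97 ± 1.14, adjusted p = 0.722). CCN2, a matricellular protein induced by transforming growth factor beta, stood at 833, 1496, 466 and 206 CPM in luminal epithelium and at 148, 13.5, 181 and 4.26 CPM in stroma, without overlap (-3.60 ± 1.22, adjusted p = 0.194).

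The steroid receptors gave no call. ESR1, the estrogen receptor, stood at 8.73, 13.5, 856 and 128 CPM in stroma and at 63.6, 8.61, 10.6 and 179 CPM in luminal epithelium. Its fold change of 0.03 ± 3.71 (adjusted p = 0.999) became -1.19 without the pregnant stromal library of mare M. PGR, the progesterone receptor, was too low for the test, with 103 counts in stroma, nearly all in pregnant M (213 CPM), and 8 in luminal epithelium. Of 8 tested steroid receptors and co-chaperones 6 were positive, with a median of 0.15. The median was -0.07 on plain library sizes, -0.34 without mare B and -0.66 without mare M, and without the pregnant stromal library of mare M it was -0.52 with 2 of 8 positive. HSP90AA1, a chaperone of these receptors, had -2.07 ± 0.92 (adjusted p = 0.494) and PGRMC1 -2.20 ± 1.46 (adjusted p = 0.783).

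Of 16 genes of the prostaglandin pathway 4 were tested, all negative, and none was called (median -4.88, or -2.95 without mare U). HPGD, which inactivates prostaglandins, had 137 counts in luminal epithelium and 1 in stroma (adjusted p = 0.644). PTGER4, a prostaglandin E2 receptor, had 139 counts against 4, nearly all in both pregnant luminal libraries, at 264 and 218 CPM (adjusted p = 0.763). The 5 tested HOX genes were negative too (median -2.72, but -0.14 without mare U and -0.73 without mare B), with HOXB6 at -3.95 ± 1.70 and HOXA5 at -2.72 ± 3.62 (adjusted p = 0.473 and 0.935). Of 6 tested immediate early genes, IER3 was called higher in luminal epithelium (-5.64 ± 1.53, adjusted p = 0.0318), although it stood at 0 CPM in the pregnant luminal library of mare M and at 1468 CPM in pregnant U. Without mare U its adjusted p was 1, the highest of its 23 alternatives. EGR1 had -4.73 ± 2.08 (adjusted p = 0.487).

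Of 74 cytosolic ribosomal proteins, all tested, 68 were positive and 0 were called, with a median of 1.13 (0.66 on plain library sizes and 0.69 without mare U). RPL37A, a protein of the large subunit, had 2.27 ± 0.88 (adjusted p = 0.349). The summed level of the ribosomal proteins was 58936, 150839, 52347 and 171148 CPM in stroma and 39181, 40728, 85755 and 30308 CPM in luminal epithelium. Over the 12 libraries of these biopsies, the 4 with an RN18S share of at most 7.29% held 85755 to 171148 CPM, and the 8 with 19.8% or more held 30308 to 63138 CPM. The highest 2 stromal libraries and the highest luminal library were among the 4. The part of the RN18S share in the difference was not tested.

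The glandular libraries of the same biopsies gave a further value, in a joint fit that used the same luminal libraries for both differences, so these are not independent. In it 45 of 7571 genes differed between glandular and luminal epithelium (0.594%). STC1, GM2A, TRPV6, UNC5CL and PADI2 were lower in glandular epithelium as well. STC1 stood at 108, 108, 215 and 283 CPM in the glandular libraries (-4.65 ± 0.83, adjusted p = 1.53e-05) and GM2A at 7.83, 17.9, 2.07 and 129 CPM (-6.23 ± 1.05, adjusted p = 3.98e-06). The differences of TRPV6, UNC5CL and PADI2 from luminal epithelium were -5.10, -5.80 and -7.64, with adjusted p of 0.00188 to 0.00332. EPAS1 (-4.38 ± 1.05, adjusted p = 0.00767), ITPR1 (-5.46 ± 1.10, adjusted p = 0.000543) and CD74 (-3.63 ± 0.79, adjusted p = 0.00165) were also lower in glandular than in luminal epithelium. Between stroma and luminal epithelium the joint fit called none of EPAS1, ITPR1 and CD74 (adjusted p = 0.0654, 0.0948 and 0.481).

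The luminal calls LOC100066131, 102149844, LOC100068406 and DNAH9 were lower in glandular epithelium too (adjusted p = 1.46e-06 to 0.00621 in the joint fit). Some other genes higher in luminal epithelium than in stroma were not called between glandular and luminal epithelium. CLDN8 stood at 753, 150, 223 and 1021 CPM in the glandular libraries (-0.37 ± 0.96, adjusted p = 1) and PRXL2A at 502 to 5107 CPM (-0.51 ± 0.78, adjusted p = 0.992). SLC37A2 had -1.47 ± 0.81 and VNN2 -2.42 ± 0.81 (adjusted p = 0.658 and 0.203), and both were lower in the glandular than in the luminal library of each biopsy. The genes higher in stroma were not called between glandular and luminal epithelium, with COL14A1 at 1.77 ± 1.14, IGFBP5 at 3.24 ± 1.02, DCN at 2.72 ± 1.31 and FST at -0.71 ± 1.12 (adjusted p = 0.758, 0.142, 0.572 and 0.993). IGFBP5 stood at 23.9 to 198 CPM in the glandular libraries, above its luminal and below its stromal levels in each of the 4 biopsies.

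**Figure D5:**
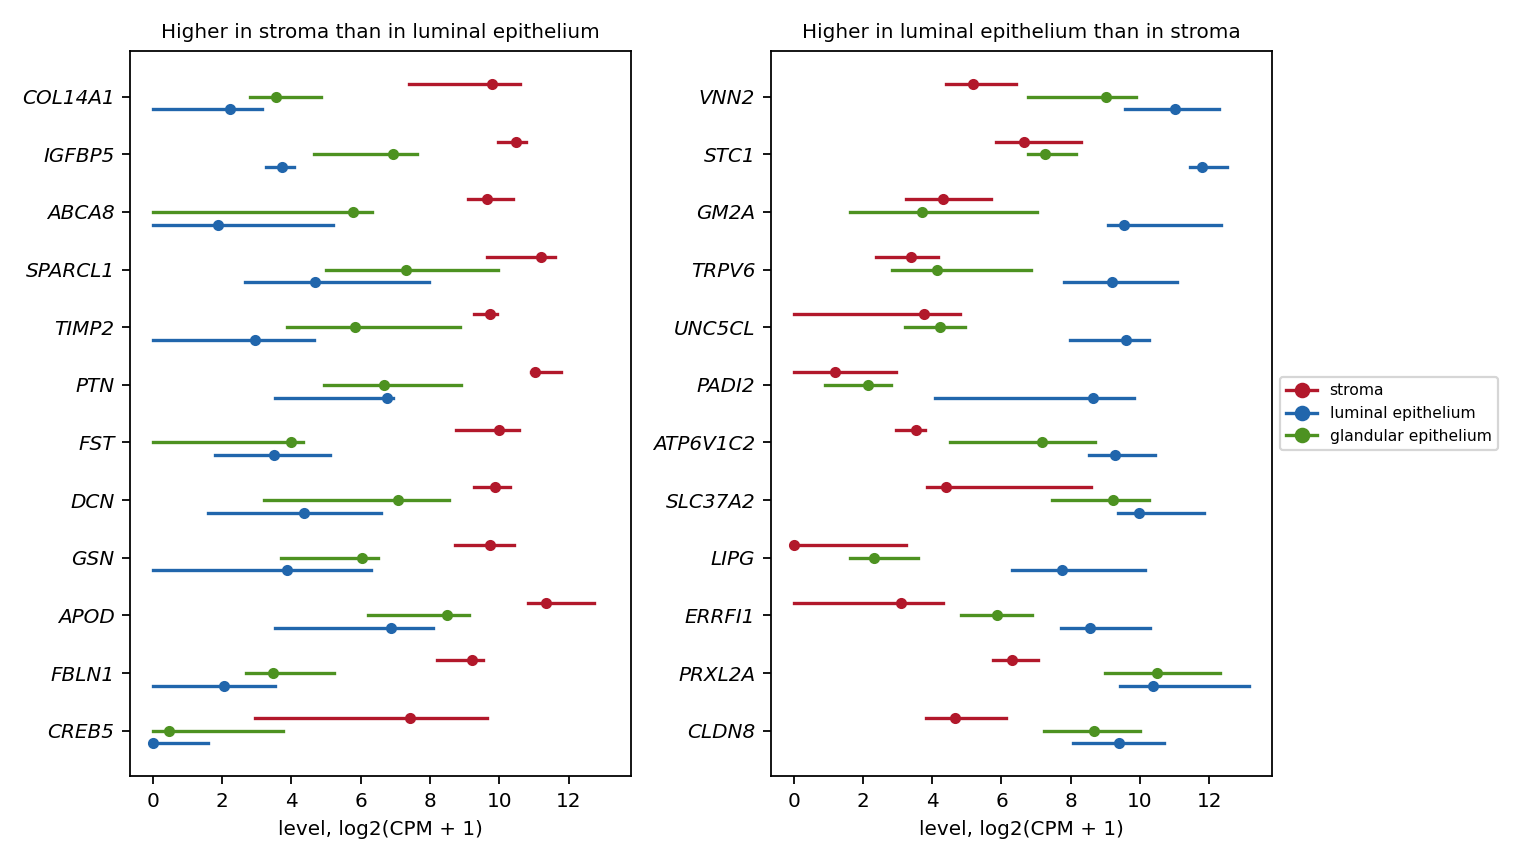
Range (line) and median (point) of log2(CPM + 1) over the 4 libraries of stroma, glandular and luminal epithelium for the 12 genes of each direction. Glandular levels of STC1, GM2A, TRPV6, UNC5CL and PADI2 lie near those of stroma, and the ranges of CLDN8 and PRXL2A overlap with those of luminal epithelium.

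Whether the difference between stroma and luminal epithelium depended on the state was tested as an interaction over the 8 libraries with the biopsy as a block. Of 5379 genes 0 passed (0%) by edgeR's quasi-likelihood test, with 41 at an unadjusted p under 0.05, while DESeq2 called 6 and limma-voom 1. LRR1, which acts in the removal of replication machinery from DNA, had the smallest adjusted p (0.617 in edgeR). It and ANXA1 were chosen after their values were seen. LRR1 stood at 0, 67.4, 3914 and 72.5 CPM in stroma and at 491, 942, 63.5 and 2.48 CPM in luminal epithelium. Its order was thus opposite in the cyclic and the pregnant biopsies. ANXA1, annexin A1, stood at 188, 506, 14.7 and 8.53 CPM in stroma and at 270, 23, 1724 and 536 CPM in luminal epithelium (-8.27 ± 3.15, adjusted p = 1). Each state had 2 biopsies, and mare M gave 1 of them in both. On simulated counts the interaction test recovered 2 of 100 genes changed by a log2 value of 6 and 2 of 100 changed by 8. The 0 calls therefore do not show that the difference was alike in both states.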

How the data were processed

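RNA sequencing of 21 laser-captured libraries was used, 8 of them for this comparison. The submitters' processing notes name Trimmomatic 0.32.2, a read trimmer, and HISAT2 2.0.3, an aligner. The counting step, genome build and annotation were not given in the sources used here. As deposited, the main table holds raw read counts per gene ID by the authors. The authors also deposited 2 tables of signal, which are these counts divided by a constant per library and served as alternatives. Symbols came from a RefSeq horse gene table matched by gene ID, for names only; 21420 of 24942 IDs matched, as did 5370 of the 5551 tested. Reads of near-identical or overlapping genes, and of antisense genes, may be miscounted.

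Counts were summed per mare and compartment, filtered with filterByExpr (minimum count 10, minimum total 15), scaled by TMM and tested two-sided in edgeR 4.0.16 (R 4.3.3) with the mare as a block, adjusting over all 5551 genes. Adjusted p-values without a named tool are from this test. No gene departed from the shared trend of spread, so the SE (absolute fold change over the square root of F) does not hold the gene's own spread. The interaction and the joint fit with glandular epithelium were fitted likewise. The same mare gave both compartments, which pairs them; deviations of same-mare sums correlated at 0.0271 (B), 0.0331 (M) and 0.0171 (U) over 5551 genes. In mare M the stromal sum came mostly from the pregnant and the luminal sum mostly from the cyclic library. The compartment difference of mare M in the main test is thus mixed with state. The deeper a library, the more it weighed. Per-biopsy directions used log2(CPM + 5).

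Named genes were the 12 with the smallest p per direction that had a symbol and the same sign in all 4 biopsies, a fixed set of markers, and from each list its called members and the 2 with the smallest p. An item that this rule named is not reported here. Other list members named in the text were chosen after their values were seen. All members and lists were chosen with earlier results of these data known. A group with 0 counts was given a floor of 3 counts over its libraries; ratios with 1 to 3 counts have exact (Clopper-Pearson) 95% intervals. Both cover counting error only. Alternatives were other scalings, filters and tools (DESeq2 1.42.0, limma 3.58.1), the libraries as units, the deposited signals, and leaving out each mare or biopsy; leaving out the pregnant luminal or the pregnant stromal library of mare M was chosen after seeing the data. The scripts were checked on simulated counts with known changes. There the main test recovered 1 of 100 genes changed by a log2 value of 4 and 21 of 100 changed by 6. A gene that was not called may thus still differ. No sequences or coordinates are given.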

Additional observations from a re-analysis of the deposited data

Results flagged for a closer look

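Among 122 sets of 4 libraries (each named gene, the total count and the RN18S share in each compartment), 14 had 1 library far from the other 3, by the share that its gap took of the whole range (genes on the log2(CPM + 1) scale). Chance marks about 1 in 20 sets of normally distributed values. That rate does not hold for sets in which all libraries but 1 stand at 0, so the 14 cannot be set against it. The pregnant luminal library of mare M was the one apart in 6 of them. It held PTN at 10.6 CPM (95.5 to 121 in the other luminal libraries), SH3RF2 at 5.29 CPM (913 to 1275), SAT1 at 31.7 CPM (2367 to 2500), DTHD1 at 0 CPM (284 to 465) and COL1A1 at 2756 CPM (216 to 221), and its RN18S share was 0.452% (21% to 23.5%). In luminal epithelium TAGLN stood at 52.1 CPM in pregnant U and at 0 in the others, and CREB5 and ACTA2 at 1.99 CPM in cyclic B, which is 1 count, and at 0 in the others.

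In stroma SLC37A2 stood at 384 CPM in cyclic B against 13.5 to 23.1 CPM, and PLXDC2 at 13.5 CPM in cyclic M against 694 to 789 CPM. LIPG at 8.53 CPM in pregnant U and GCNT3 at 4.21 CPM in pregnant M were 2 counts each, with 0 in the other libraries. The pregnant stromal library of mare M held a total count of 1175127 against 138441 to 241309.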

How the results depend on the processing

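Against 46 calls (16 higher in stroma, 30 in luminal epithelium), the plain library size gave 23 (3 and 20), no filter on low counts 29 (10 and 19), DESeq2 537 (232 and 305), edgeR's likelihood ratio test 112 (44 and 68), no replicate block for the mare 88 (40 and 48) and the 8 libraries with the biopsy as a block 27 (10 and 17). limma on the deposited signals gave 0 in each of 3 fits, with 547 to 756 genes at an unadjusted p under 0.05 and adjusted p of at least 0.488. Leaving out a mare, a biopsy or 1 library of mare M gave 18 to 50 calls in all, 6 to 20 higher in stroma and 10 to 30 in luminal epithelium. The other scalings, filters and tools stayed within 1.5 times, from 39 to 58 calls, with limma-voom at 40 (19 and 21). The interaction with the state gave 0 calls, but 6 in DESeq2, 1 in limma-voom, 1 with no replicate block for the biopsy and 0 to 2 with a biopsy left out. No called gene changed direction in any alternative. Uncalled ESR1 turned to -0.071 on mean log2 CPM, to -0.20, -0.051 and -1.06 on the deposited signals, to -1.12 and -1.19 without the pregnant biopsy or stromal library of mare M, and ran from -1.90 without mare M to 2.57 without mare B. KRT18 turned to 0.26 with no replicate block and ran from -1.35 without mare U to 1.27 without mare M. The median of all genes moved from -0.74 to -0.62 with relative log expression size factors in edgeR and to -1.21 with plain library sizes. Depth limits genes of low count: 5551 of 24942 IDs could be tested.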
